A study of Mus musculus with 87 samples.

Results

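The globin genes of the mouse were followed through the E18.5 (late embryonic) and P1 (postnatal day 1) tissues of semi-cloned mice. Their members were chosen by name: Hba-a1, Hba-a2 and Hba-x of the alpha family, and Hbb-bs, Hbb-bt, Hbb-b1, Hbb-y and Hbb-bh1 of the beta family, which make 8 of the 25277 gene rows in each table. Semi-cloned mice arise when an androgenetic haploid stem cell, which carries only a paternal genome, is injected into an oocyte in the place of a sperm. The samples were bulk RNA-seq libraries of whole tissues, and 56 of the 87 samples of the series are used here. All of them carry 1 of the genotype labels pWT, pTKO or pIR. The sources used here do not say what these abbreviations and the prefix p stand for, and give neither strain, sex nor the number of stem cell lines behind a group.

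In E18.5 batch 1, pTKO was compared with pWT in brain, heart, kidney, liver and lung, with 2 libraries a group. In E18.5 batch 2, pIR was compared with pWT in heart and liver, with 4 libraries a group. At P1, pIR (2 libraries a tissue) was compared with pWT (3 libraries a tissue) in heart, kidney, liver and lung. That gives 11 genotype comparisons over 22 groups. With so few libraries, groups can fail to overlap by chance, and the share of all genes that did so was not counted. In pWT, P1 was also set against E18.5 in 4 tissues. No label says that replicates came from separate animals, so the p-values measure the spread between these libraries, which may in part be technical. Nor does any label say whether libraries of the same number in different tissues came from 1 animal. Fits over several tissues treat them as independent.

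Haemoglobin, the oxygen carrier of red blood cells, holds a pair of alpha-type and a pair of beta-type globin chains. In the mouse, the red cells that come from the yolk sac early in gestation make embryonic chains, zeta from Hba-x and epsilon-y and beta-h1 from Hbb-y and Hbb-bh1. The red cells that later come from the fetal liver, and after birth from the bone marrow and spleen, make the adult chains from Hba-a1, Hba-a2, Hbb-bs and Hbb-bt. This change is called globin switching. The liver is the main blood-forming organ before birth, while the other tissues hold globin RNA mainly in the young red cells of their blood. In bulk tissue, fewer red cells and less globin RNA per red cell cannot be told apart.

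Not all of the 8 rows can be read apart. Hba-a1 and Hba-a2 held identical counts in 49 of 56 libraries and differed by at most 3 reads in the others. The rows Hbb-bs and Hbb-b1 held identical counts in 55 of 56 libraries and differed by at most 1 read. The 8 members therefore give 6 distinct measurements, and Hba-a1 and Hbb-bs each stand below for both rows of their pair. Hbb-b1 had no position in the annotation used, so it is not shown to be a separate gene copy. A further row, Hbb-b2, equalled Hbb-bt in 56 of 56 libraries.

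In the mm10 build, the alpha cluster lies on the plus strand of chromosome 11 in the order Hba-x (chr11:32276400-32278116), Hba-a1 (chr11:32283511-32284465) and Hba-a2 (chr11:32296489-32297298). The beta cluster lies on the minus strand of chromosome 7, with Hbb-y (chr7:103851749-103853216) first in the direction of transcription. It is followed by Hbb-bh1 (chr7:103841637-103843164), Hbb-bs (chr7:103826534-103828096) and Hbb-bt (chr7:103812524-103813996).

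The coding sequences show which rows a short read can separate. The alpha stretches below are bases 351 to 410 of the coding sequence, and capitals mark each base that differs from Hba-a1.
Hba-a1: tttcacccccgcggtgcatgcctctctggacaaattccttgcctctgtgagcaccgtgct
Hba-a2: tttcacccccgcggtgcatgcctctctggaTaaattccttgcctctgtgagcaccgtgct
Hba-x: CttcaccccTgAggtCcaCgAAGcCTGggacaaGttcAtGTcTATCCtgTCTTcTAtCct
The beta stretches are bases 385 to 444, the end of the coding sequence with its stop codon, and capitals mark each base that differs from Hbb-bs.
Hbb-bs: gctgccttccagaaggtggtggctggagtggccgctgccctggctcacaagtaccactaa
Hbb-bt: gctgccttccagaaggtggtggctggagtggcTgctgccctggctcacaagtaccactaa
Hbb-y: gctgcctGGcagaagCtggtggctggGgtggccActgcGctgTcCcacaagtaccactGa
Hbb-bh1: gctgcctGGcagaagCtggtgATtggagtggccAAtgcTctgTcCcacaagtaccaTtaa

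Hba-a1 and Hba-a2 shared 428 of 429 coding bases, and C381T, counted from the first base of the start codon, was their one difference. Hbb-bs and Hbb-bt shared 443 of 444 coding bases, with C417T as their one difference. Their transcripts shared a run of 430 identical bases, longer than the 150-base reads, so the split of reads between Hbb-bs and Hbb-bt is uncertain. The embryonic genes are well separated from the adult ones. Hba-x differed from Hba-a1 at 163 coding bases, with a longest shared run of 18 bases. Hbb-y was 74.3% and Hbb-bh1 74.1% identical to Hbb-bs, and the longest run that Hbb-bh1 shared with Hbb-bs was 22 bases.

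Promoter sequences are shown for adult alpha and beta genes, whose rows carry nearly all globin reads, and for Hbb-y, the embryonic gene that stood out in 1 library. They come from RefSeq on GRCm38.p6, where 6 of the 8 members had an entry. Each stretch lies within the 150 bases before the RefSeq start and outside any annotated exon. The gene extents given above come from GENCODE, whose start for Hbb-bs lies further upstream. The Hbb-bs stretch therefore lies inside that extent. Capitals mark matches on either strand to 5-letter motifs: CCAAT (the CCAAT box), CACCC (the box that Klf1-type factors bind), TATAA and ATAAA (TATA-type boxes) and TGACC (the core of the direct repeats that Nr2c1 and Nr2c2 bind), of which TGACC and CCAAT, and TATAA and ATAAA, can overlap. GATAA, the core of a GATA site, was searched as well.
Hba-a2: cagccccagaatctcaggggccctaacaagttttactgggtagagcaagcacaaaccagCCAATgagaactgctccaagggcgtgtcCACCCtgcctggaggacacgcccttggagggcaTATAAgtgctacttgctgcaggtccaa
Hbb-bs: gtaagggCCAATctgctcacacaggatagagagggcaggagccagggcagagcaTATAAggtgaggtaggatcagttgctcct
Hbb-y: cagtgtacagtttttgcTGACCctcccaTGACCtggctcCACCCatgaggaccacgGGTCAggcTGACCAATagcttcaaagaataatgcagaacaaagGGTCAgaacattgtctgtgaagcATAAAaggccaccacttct
The Hba-a2 stretch is chr11:32296342-32296488 on the plus strand, the Hbb-bs stretch chr7:103827929-103828011 and the Hbb-y stretch chr7:103853217-103853357, both on the minus strand.

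Positions are those of a motif's first base in the printed direction, counted back from the RefSeq start. Within the whole 150-base windows, CCAAT stood at -91 in Hba-a2, -88 in Hba-a1, -76 in Hbb-bs and -75 in Hbb-bt, and TATAA at -30, -27, -29 and -28. CACCC stood at -63 in Hba-a2, -60 in Hba-a1 and -90 in Hbb-bs, and Hbb-bt held it 3 times, at -140, -104 and -89. Hbb-bt also held ATAAA at -27, and on the other strand CCAAT at -80 and -36 and TGACC at -13. The Hbb-y window held TGACC 5 times, at -133, -122 and -86 and on the other strand at -94 and -51. It held CACCC at -111, CCAAT at -83 and ATAAA at -28, and no TATAA. The Hba-x window held CACCC at -95, GATAA at -107, TATAA at -28, ATAAA at -27 and TGACC at -40, and no CCAAT. Such letters are common: of 32851 promoter windows of this length, 37.43% held CACCC, 24.5% CCAAT, 14.15% TATAA, 24.14% ATAAA, 23.08% TGACC and 13.35% GATAA. A match is a description of the sequence and not evidence of binding.

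Total counts were 10714628 to 37396693 reads per library in E18.5 batch 1, 16305144 to 23754158 in E18.5 batch 2 and 13904567 to 21015410 at P1. The globin rows, with copies counted once, took 0.0368% to 4.88% of the reads. The tissue labels were checked against 4 marker genes each, summed in CPM, the counts of a gene per 1000000 counts of its library. The lowest library of the labelled tissue and the highest library of any other tissue stood at 3506 and 66.0 CPM for brain, 26970 and 789 for heart, 429.966 and 2.92 for kidney, and 14304 and 125 for lung. For liver they stood at 31270.5 and 1819 CPM, and 1819 belonged to E18.5 heart pTKO replicate 1. That heart library thus holds liver transcripts (Alb, Apoa1, Ttr, Serpina1a), while its other replicate stood at 9.56 CPM and the pWT hearts at 3.67 and 85.7.

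The adult alpha row was most abundant in liver in both stages. In pWT at P1, Hba-a1 stood at 15535, 15293 and 18364 CPM in liver and at 7249, 4190.5 and 5432 CPM in lung. Heart held 1019, 1107 and 1183 CPM, and kidney 210.4, 192 and 186 CPM. No library of one tissue overlapped another. For both stages the test of tissue pairs was edgeR's quasi-likelihood F test with Benjamini-Hochberg adjustment over all genes. The P1 fit placed liver 4.43-fold above lung (log2 2.15 ± 0.24 SE), lung 4.46-fold above heart and heart 7.63-fold above kidney (log2 2.93 ± 0.25). All 6 pairs passed for each of the 3 adult rows, where 75.1% of all genes tested were called between liver and lung, 66.5% between heart and lung and 64.3% between heart and kidney.

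Hbb-bs, the more abundant adult beta row, followed the same order at P1. Its pWT values were 19625, 18118 and 20934 CPM in liver, 9036, 6414 and 7981 in lung, 1243, 1315 and 1652 in heart and 233, 196 and 261 in kidney. Liver stood 153.8-fold above kidney. Hbb-bt held 9089.9, 5041 and 9430.4 CPM in liver and 3016, 2179 and 2947 in lung. It held 374, 389 and 466 CPM in heart and 96.8, 76.5 and 96.8 in kidney, and these ranges did not overlap either.

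At E18.5, brain could be added to the order. The pWT libraries of batch 1 held 16005 and 11104 CPM of Hba-a1 in liver, 5539 and 3394 in lung, 826 and 909 in heart, 541 and 539 in kidney and 283 and 237 in brain. Liver stood 103.5-fold above brain. For Hbb-bs the same libraries held 13824 and 10450.5 CPM in liver, 5072 and 3188 in lung, 774 and 752 in heart, 497 and 496 in kidney and 395 and 345 in brain. All 10 tissue pairs passed for Hba-a1 and Hbb-bt, and 9 of 10 for Hbb-bs. The exception was brain against kidney, which differed by log2 -0.33 ± 0.36 (edgeR adjusted p = 0.45). Of all genes tested between neighbours in the order, 56.5% were called between liver and lung, 50.8% between heart and lung, 41.6% between heart and kidney and 61.2% between brain and kidney.

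**Figure D1:**
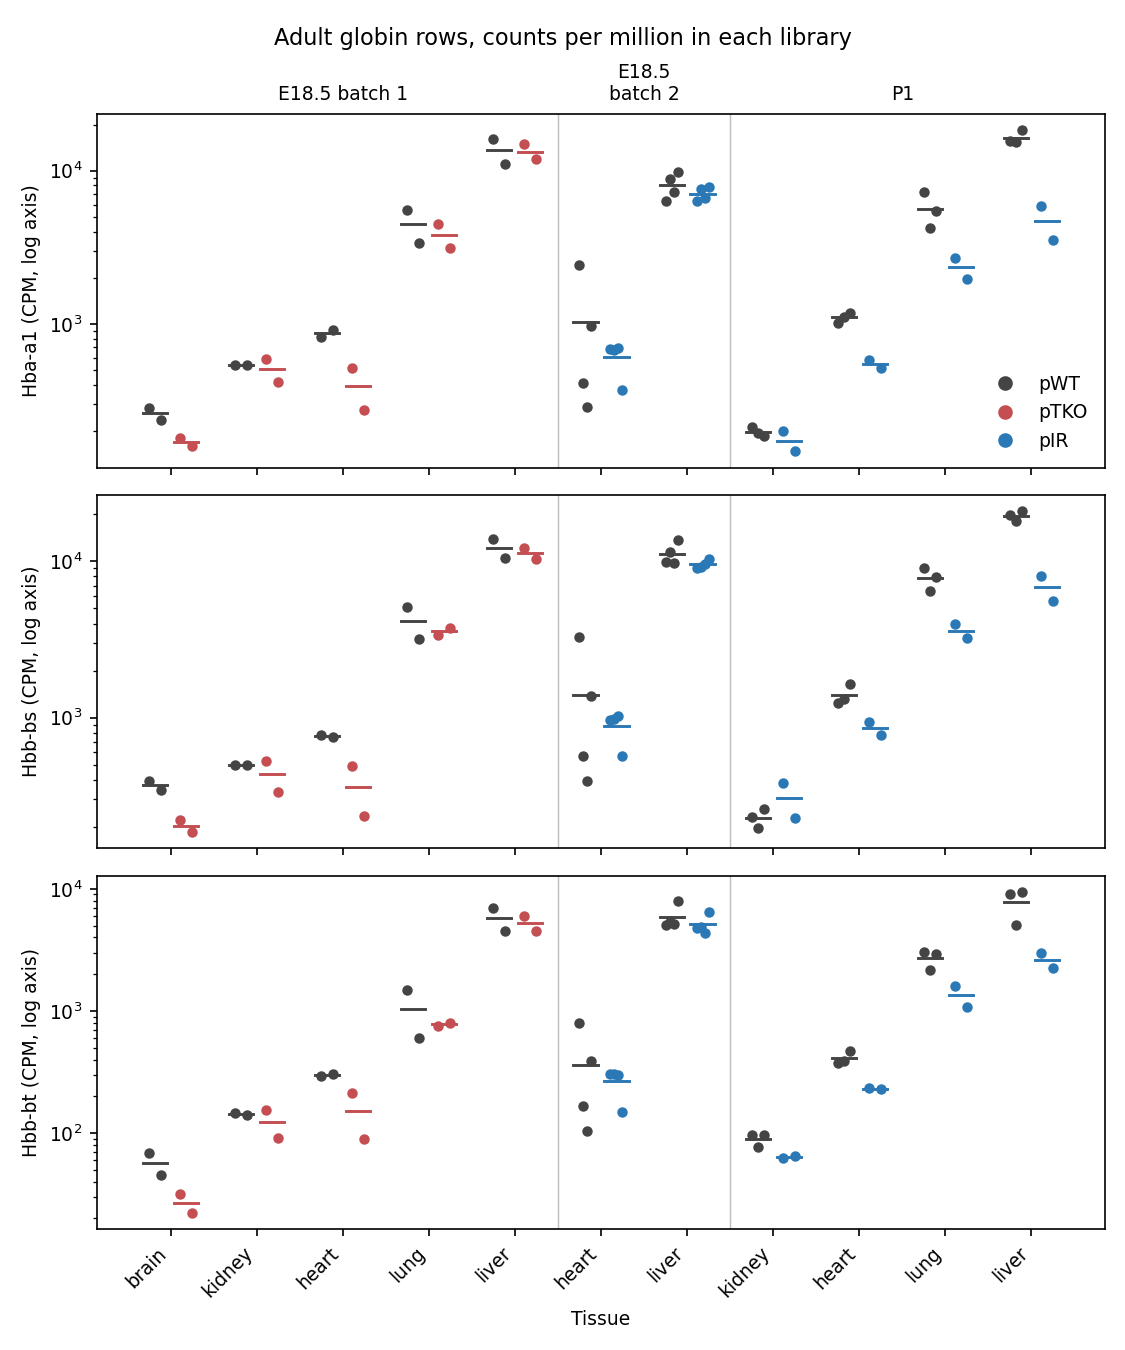
CPM (log axis) of the adult rows Hba-a1, Hbb-bs and Hbb-bt in each of the 56 libraries, by tissue, stage and batch; points are libraries, coloured by genotype, and bars are group means. Liver is highest and brain (E18.5) or kidney (P1) lowest, and the pIR points lie below all pWT points in P1 liver, lung and heart for the 3 rows.

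Per kilobase of coding sequence, the scale on which different genes may be compared, the P1 pWT liver held 38222 ± 3979.8 CPM of Hba-a1, 44051 ± 3174 of Hbb-bs and 17689 ± 5499.9 of Hbb-bt (SD, n = 3). In these livers the Hba-a1 row alone stood at 0.560 to 0.683 of Hbb-bs plus Hbb-bt. Hba-a2, whose counts are nearly the same, was not added. How reads were shared between near-identical copies is not given, so this ratio of rows does not measure the balance of alpha and beta chains. The embryonic genes were far lower on this scale, at 11.6 ± 9.38 for Hbb-y, 4.73 ± 5.13 for Hba-x and 2.26 ± 0.832 for Hbb-bh1. Hbq1b, a theta-type globin gene next to Hba-a1 (chr11:32286965-32287784), stood at 115 ± 28.6. Over the 56 libraries, this ratio of rows per coding kilobase ranged from 0.440 to 1.12, and it differed between the E18.5 batches. In pWT liver it was 0.767 to 0.795 in batch 1 and 0.440 to 0.539 in batch 2. In pWT heart it was 0.800 to 0.892 in batch 1 and 0.567 to 0.621 in batch 2.

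In pTKO brain at E18.5 the adult globin rows were lower than in pWT. Hba-a1 stood at 178 and 159 CPM in pTKO and 283 and 237 in pWT, and Hbb-bs at 221 and 185 against 395 and 345. Hbb-bt stood at 31.7 and 22.1 CPM against 68.0 and 45.2. The groups did not overlap for any of these rows, which 2 against 2 libraries often show by chance. Hba-a1 fell 1.56-fold (log2 -0.64 ± 0.08, adjusted p = 0.0021), Hbb-bs 1.85-fold (-0.89 ± 0.08, 0.00017) and Hbb-bt 2.15-fold (-1.10 ± 0.18, 0.011), in edgeR's quasi-likelihood test with 2 libraries a group. Across all genes tested in brain, 1.06% fell. With all E18.5 batch 1 tissues in 1 fit, which share 1 estimate of the spread, none of the 3 passed (Hba-a1 -0.62, adjusted p = 1). Beside this, Slc4a1, the red cell anion exchanger, fell by 2.09 on the log2 scale (SE 0.48, adjusted p = 0.045).

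Of the 15 erythroid membrane and heme genes tested in brain, Slc4a1 was the 1 that fell, and 2 rose, among them Sptb (0.43 ± 0.09), beta-spectrin, which neurons also express. Their median change was 0.01, and that of all genes 0.006. Summed erythroid markers stood at 12.8 and 8.77 CPM in the pTKO brains and 21.2 and 17.9 in the pWT brains, with no overlap. Of 2 of these markers tested 1 fell (Slc4a1), and their part in the globin result was not tested. Of 17 regulators of globin genes tested, Igf2bp1 (-0.59) and Sox6 (-0.39) fell. Igf2bp1 is an RNA-binding protein of fetal tissues and Sox6 a partner of Bcl11a in silencing embryonic globin genes.

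The E18.5 heart showed lower adult globin in pTKO as well, and here the call was near the threshold. Hba-a1 stood at 515 and 274 CPM in pTKO and 826 and 909 in pWT, a 2.32-fold fall (log2 -1.21 ± 0.30, adjusted p = 0.046). Hbb-bs stood at 488 and 235 CPM against 774 and 752 (-1.16 ± 0.35, adjusted p = 0.069), and Hbb-bt at 214 and 90.2 against 294 and 304 (-1.06 ± 0.40, 0.11). No pTKO library reached a pWT library in any row, a separation that 2 against 2 libraries often show by chance. In this tissue 11.9% of all genes tested fell. Leaving out any 1 of the 4 libraries lost the call for Hba-a1: the log2 change was -1.69 (adjusted p = 0.10) without pTKO replicate 1, the library with liver transcripts, -0.81 (0.12) without pTKO replicate 2, -1.24 (0.063) without pWT replicate 1 and -1.22 (0.062) without pWT replicate 2.

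Summed erythroid markers (5 genes, among them Slc4a1, Alas2, Hemgn and Rhag) stood at 66.0 CPM in pTKO heart replicate 1 and 18.6 in replicate 2, against 34.8 and 33.9 in pWT. Among 20 erythroid genes tested in heart, Tfrc, the transferrin receptor (1.88 ± 0.13), and Slc25a37, the mitochondrial iron carrier mitoferrin (0.99 ± 0.19), rose, and Urod of heme synthesis fell (-0.62 ± 0.10). The regulators Sox6 (1.01), Nr2c2 (0.68) and Lin28b (2.04) rose and Zfpm1 (-0.84), a cofactor of Gata1, fell, of 18 tested. Over all genes in this heart comparison, 2255 rose and 1787 fell of 15075, which makes 4042 called. None of these list calls held without pTKO replicate 1, the library with liver transcripts. That refit leaves 1 library in an arm, so the part of the liver transcripts in these calls was not tested.

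In E18.5 kidney, liver and lung, no haemoglobin row was called between pTKO and pWT, and neither was any other gene by edgeR (0% of genes in each). Unadjusted p was under 0.05 for 2374 genes in kidney, 642 in liver and 488 in lung, and DESeq2 called 335, 60 and 13. The counts changed when 1 library was left out: edgeR called 5327 genes in kidney and 7191 in liver without pWT replicate 1, and 7876 in lung without pTKO replicate 2. Such a fit leaves 1 library in an arm, which is then assumed to vary like the other group. In liver, Hba-a1 stood at 14819 and 11849.7 CPM in pTKO and 16005 and 11104 in pWT, with pTKO inside the pWT range (-0.14 ± 0.35). In kidney it stood at 587 and 419 CPM against 541 and 539 (-0.15 ± 0.19), and in lung at 4494 and 3126 against 5539 and 3394 (-0.17 ± 0.35). Hbb-bs and Hbb-bt changed by -0.14 to -0.36 on the log2 scale in these 3 tissues, with SEs of 0.24 to 0.45.

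The differences between tissues in the pTKO change were tested in 1 fit over the 20 batch 1 libraries. None passed for Hba-a1 (adjusted p = 0.41), Hbb-bs (0.43) or Hbb-bt (0.68), and 0.0106% of all genes did. The lower values in brain and heart were therefore not shown to differ from those in kidney, liver and lung.

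In E18.5 heart of batch 2, pWT libraries varied more than pIR libraries. Hba-a1 stood at 2438, 409, 286 and 960.0 CPM in pWT and 689, 675, 699 and 371 in pIR, so that all pIR values lay inside the pWT range. The log2 change was -0.75 ± 0.55 for Hba-a1, -0.66 ± 0.54 for Hbb-bs and -0.45 ± 0.52 for Hbb-bt (adjusted p = 0.84 to 0.90, n = 4 and 4, edgeR). Without pWT replicate 1, the highest library, the change in Hba-a1 was 0.15. Over all genes in this comparison, 0.0137% were called by edgeR, unadjusted p was under 0.05 for 863, and DESeq2 called 20.

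In E18.5 liver, the 4 pIR libraries held 6323, 7545, 6673 and 7809.5 CPM of Hba-a1 and the 4 pWT libraries 6356, 8765, 7308 and 9742. Hbb-bs held 9057, 9244, 9556 and 10358 CPM against 9889, 11474, 9777 and 13601, and Hbb-bt 4825, 4912, 4384 and 6461 against 5053, 5368, 5158 and 7901. The groups overlapped in all 3 rows. The log2 changes were -0.17 ± 0.13, -0.22 ± 0.11 and -0.18 ± 0.15. No gene passed by edgeR (0%), with an unadjusted p under 0.05 for 813 genes and 11 called by DESeq2.

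At P1 all 3 adult rows were lower in pIR liver than in pWT liver. Hba-a1 stood at 5855 and 3517 CPM in pIR and 15535, 15293 and 18364 in pWT (means 4686 ± 1653 and 16397 ± 1707, SD). Hbb-bs stood at 8106 and 5588 CPM against 19625, 18118 and 20934, and Hbb-bt at 2980.2 and 2244 against 9089.9, 5041 and 9430.4. Every pIR library lay below every pWT library in each row, a separation that 2 against 3 libraries can show by chance. In edgeR's test Hba-a1 fell 2.78-fold (log2 -1.47 ± 0.23, adjusted p = 0.00038), Hbb-bs 2.26-fold (-1.18 ± 0.21, 0.00088) and Hbb-bt 2.37-fold (-1.25 ± 0.26, 0.0024). In this liver comparison 39.2% of all genes tested were called, in either direction.

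The scaling moved these P1 liver values. On plain CPM the median gene lay at log2 -0.36 in pIR against pWT, and Hba-a1, Hbb-bs and Hbb-bt at -1.81, -1.51 and -1.59. The fitted values above are relative to TMM scaling factors, which centre the genes near 0. In the other 10 genotype comparisons that median shift was within 0.1.

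Hbb-bh1, the embryonic beta-h1 gene, also fell in P1 liver, from very few reads. It had 9, 14 and 21 reads in the pWT livers and 2 and 2 in the pIR livers. Pooled, that is 44 of 43414426 reads against 4 of 39350267, a pWT to pIR ratio of 9.97 with an exact 95% interval of 3.63 to 38.2 that covers counting error only. The fit gave a log2 change of -2.89 ± 0.73 (edgeR adjusted p = 0.0077), which did not pass without pIR replicate 1 (0.0755) or without pIR replicate 2 (0.0767). Hbb-y had 25 and 60 reads in pIR and 53, 26 and 150 in pWT (-0.92 ± 0.58, adjusted p = 0.23), and Hba-x 7 and 40 against 17, 5 and 69 (-0.44 ± 0.82, 0.70). Those groups overlapped. Hbq1b stood at 25.2 and 14.7 CPM against 50.4, 36.8 and 61.3 and fell (-0.98 ± 0.23, adjusted p = 0.0053); without pIR replicate 2 its adjusted p was 0.062.

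In P1 lung the adult rows fell by similar amounts. Hba-a1 stood at 2707 and 1969 CPM in pIR and 7249, 4190.5 and 5432 in pWT, Hbb-bs at 3950.3 and 3215 against 9036, 6414 and 7981, and Hbb-bt at 1614 and 1078 against 3016, 2179 and 2947. The groups did not overlap, which 2 against 3 libraries can show by chance. The falls were 2.48-fold for Hba-a1 (log2 -1.31 ± 0.23, adjusted p = 0.029), 2.24-fold for Hbb-bs (-1.17 ± 0.16, 0.012) and 2.07-fold for Hbb-bt (-1.05 ± 0.19, 0.032). Only 1.07% of all genes tested fell in this lung comparison. The 3 calls were lost without pIR replicate 1 (adjusted p = 0.066 to 0.11) or pIR replicate 2 (0.16 to 0.26), and 2 of them, Hba-a1 (0.074) and Hbb-bt (0.086), without pWT replicate 3.

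The embryonic rows were sparse in P1 lung. Hba-x had 1 and 2 reads in pIR and 56, 8 and 12 in pWT (log2 -4.09 ± 1.16, adjusted p = 0.10), and Hbb-y 25 and 10 against 28, 52 and 56 (-1.51 ± 0.46, 0.12). Neither passed. Neither pair of groups overlapped, which 2 against 3 libraries can show by chance.

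In P1 heart, Hba-a1 stood at 579.8 and 511 CPM in pIR and 1019, 1107 and 1183 in pWT, a 2.16-fold fall (log2 -1.11 ± 0.18, adjusted p = 0.040). Hbb-bt stood at 233 and 228 CPM against 374, 389 and 466 (-0.92 ± 0.15, adjusted p = 0.040). Hbb-bs stood at 942 and 776 CPM against 1243, 1315 and 1652 and did not pass (-0.80 ± 0.21, adjusted p = 0.076), though DESeq2 called it (0.00071). No pIR library reached a pWT library, a separation that 2 against 3 libraries can show by chance. Here 0.786% of all genes fell. Both calls were lost when any 1 of the pWT replicates 1, 2 and 3 or pIR replicate 2 was left out (adjusted p = 0.065 to 0.18 for Hba-a1 and 0.064 to 0.20 for Hbb-bt).

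Kidney was the P1 tissue without a called haemoglobin row. Hba-a1 stood at 199 and 147 CPM in pIR and 210.4, 192 and 186 in pWT (-0.14 ± 0.14, adjusted p = 0.52). Hbb-bs stood at 381 and 228 against 233, 196 and 261 (0.45 ± 0.20, 0.18), and Hbb-bt at 62.2 and 64.4 against 96.8, 76.5 and 96.8 (-0.46 ± 0.13, 0.058). DESeq2 called Hbb-bt (adjusted p = 0.019), and edgeR did without pWT replicate 2 (0.033), while Hbb-bs passed without pIR replicate 2 (0.77, adjusted p = 0.036) and stood at 0.049 (adjusted p = 0.90) without pIR replicate 1, the library at 381 CPM. Of all genes in kidney 10.6% were called. The kidney markers Slc34a1, Umod, Nphs1 and Kap differed in the same libraries: 3 of 4 rose, with summed levels of 2056 to 2261 CPM in pIR and 429.966 to 583 in pWT.

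**Figure D2:**
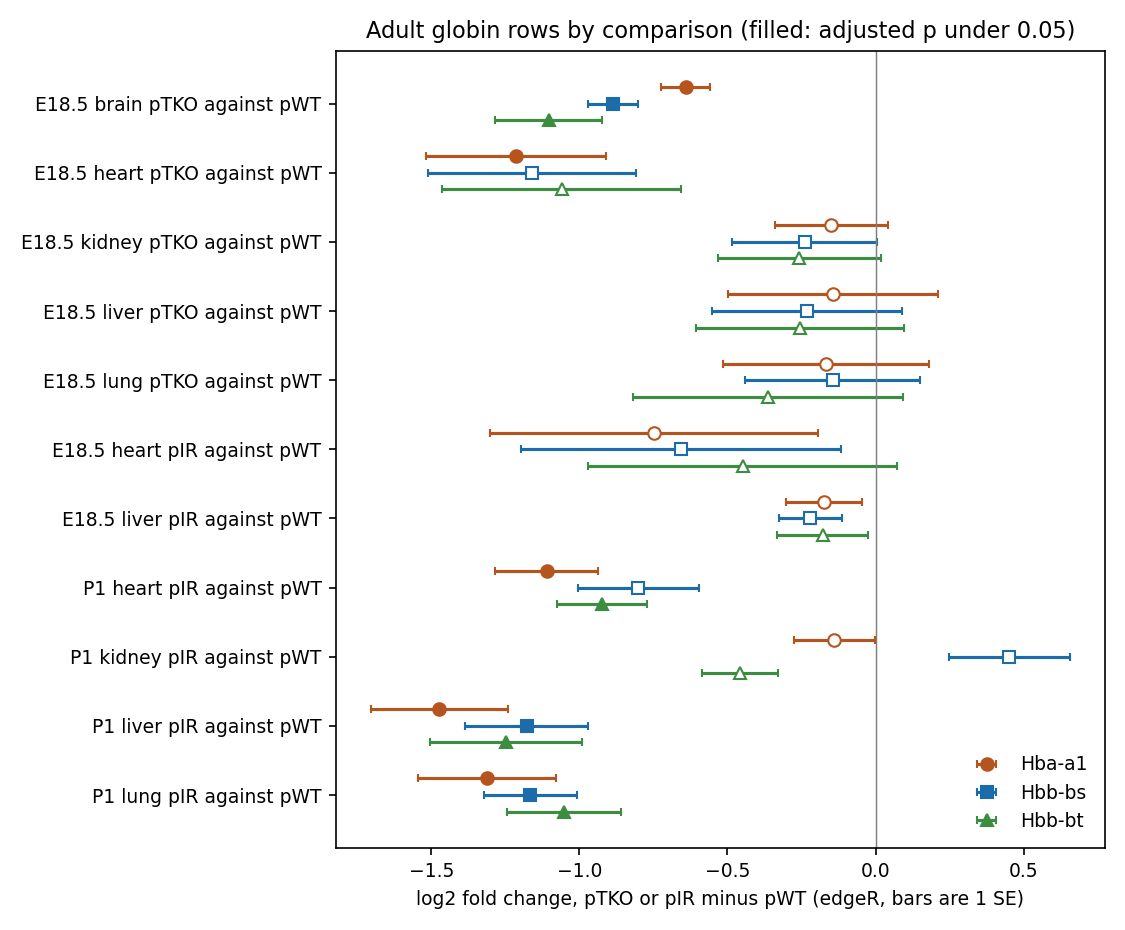
Fitted log2 fold change (x axis, pTKO or pIR minus pWT, bars are 1 SE) of Hba-a1, Hbb-bs and Hbb-bt in the 11 genotype comparisons; filled symbols have an adjusted p under 0.05. Hba-a1 in P1 liver, at -1.47, is the lowest value, and Hbb-bs in P1 kidney, at 0.45, is the only value above 0.

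Whether the pIR change differed between P1 tissues was tested in 1 fit over the 20 P1 libraries. It did for Hba-a1 (edgeR adjusted p = 0.033) and Hbb-bs (0.0063) and not for Hbb-bt (0.30), where 25.3% of all genes passed this test. The difference lay against kidney. Liver minus kidney was -1.34 ± 0.36 for Hba-a1 (adjusted p = 0.018) and -1.63 ± 0.36 for Hbb-bs (0.0051), with 14.9% of all genes called. Lung minus kidney was -1.63 ± 0.36 for Hbb-bs (0.023; 2.13% of genes), and heart minus kidney -1.27 ± 0.36 (0.043; 5.97%). For Hba-a1 these last 2 contrasts did not pass (adjusted p = 0.11 each), and for Hbb-bt none against kidney did. These contrasts share the same kidney libraries. Without kidney pIR replicate 1 the test over tissues did not pass for Hbb-bs (adjusted p = 0.0653) or Hba-a1 (0.18). Liver minus kidney was then -1.23 for Hbb-bs (0.0494) and -1.12 for Hba-a1 (0.10), lung minus kidney -1.23 (0.16) and heart minus kidney -0.88 (0.24) for Hbb-bs. With each of the 20 libraries left out in turn, liver minus kidney for Hbb-bs passed every time, and liver minus kidney for Hba-a1 also missed the threshold without liver pIR replicate 2 (-1.05, adjusted p = 0.11). For Hbb-bs, lung minus kidney missed it in 6 of the 20 refits (adjusted p up to 0.16), those without kidney pWT replicate 1 or 2, kidney pIR replicate 1, lung pWT replicate 1 or lung pIR replicate 1 or 2. Heart minus kidney missed it in 7 (up to 0.24), without kidney pWT replicate 1 or 2, kidney pIR replicate 1, heart pWT replicate 2 or 3, heart pIR replicate 2 or lung pWT replicate 3. The test over tissues missed it for Hba-a1 in 6 (0.0513 to 0.18), without any of the 3 kidney pWT libraries, kidney pIR replicate 1, liver pWT replicate 3 or liver pIR replicate 2, and for Hbb-bs in 1, without kidney pIR replicate 1.

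Among liver, lung and heart the pIR changes could not be told apart. Liver minus lung was -0.16 ± 0.36, -0.01 ± 0.36 and -0.19 ± 0.35 for Hba-a1, Hbb-bs and Hbb-bt (16.2% of genes called), liver minus heart -0.35, -0.36 and -0.30 (19.2%), and lung minus heart -0.19, -0.35 and -0.12 (0.442%).

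The pIR change in liver was larger at P1 than at E18.5. The difference, P1 minus E18.5 batch 2 with each stage against its own pWT, was -1.35 ± 0.25 for Hba-a1 (adjusted p = 0.0005), -1.01 ± 0.21 for Hbb-bs (0.0011) and -1.12 ± 0.31 for Hbb-bt (0.010). Hbb-bh1 (-3.25 ± 0.80, 0.0041) and Hbq1b (-1.12 ± 0.26, 0.0029) passed as well, where 36.2% of all genes did. With each of these 13 livers left out in turn, the 5 rows passed except Hbb-bt without P1 pIR replicate 2 (-0.98, adjusted p = 0.059). In heart the same difference was -0.38 ± 0.79, -0.16 ± 0.78 and -0.49 ± 0.75 for the 3 adult rows and did not pass (7.84% of genes did).

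At E18.5 the pIR changes in heart and liver did not differ by this test (adjusted p at least 0.92; 0.00622% of genes did). The pTKO and pIR changes were also set against each other, each relative to the pWT of its own batch. In heart pTKO minus pIR was -0.46 ± 0.92 for Hba-a1, -0.50 ± 0.92 for Hbb-bs and -0.61 ± 0.90 for Hbb-bt, with 37.8% of genes called. In liver it was 0.05 ± 0.28 for Hba-a1, 0.0035 ± 0.23 for Hbb-bs and -0.06 ± 0.34 for Hbb-bt, with 0.0385% of genes called. These intervals are wide in heart, and a missed threshold does not show that the genotypes act alike.

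In pWT, the change from E18.5 to P1 was fitted in each tissue, and differences between tissues in that change were not tested. Stage and sequencing set cannot be told apart here, and the P1 pWT libraries are the same ones that served as controls above. In kidney all 3 adult rows were lower at P1: Hba-a1 by log2 -1.50 ± 0.08 (adjusted p = 0.0072), Hbb-bs by -1.15 ± 0.13 (0.014) and Hbb-bt by -0.70 ± 0.12 (0.022), where 11.6% of genes fell. Without P1 pWT replicate 1 or replicate 2 no row passed (adjusted p = 0.0983 and 0.057 for Hba-a1), and without replicate 1 no gene at all did, of 3419 called with it. Neutrophil markers moved the same way, with 4 of 7 falling (38.5 to 73.6 CPM summed at E18.5 and 6.56 to 11.6 at P1). The kidney's own markers were lower at P1 as well, where 2 of 4 fell and all 4 were lower. None of the 4 lung markers passed, and all 4 were higher at P1, with a median log2 change of 3.35. Of 4 erythroid markers tested none was called, with summed levels of 33.6 to 49.0 CPM at E18.5 and 33.0 to 41.5 at P1. The part of these markers in the result was not tested.

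In lung, Hbb-bs (0.91 ± 0.23, adjusted p = 0.012), Hbb-bt (1.38 ± 0.35, 0.012) and the embryonic Hbb-y (1.15 ± 0.41, 0.047) were higher at P1, while Hba-a1 did not pass (0.33 ± 0.28, 0.35). Of all lung genes 23.4% rose and 25.6% fell. Hba-x was lower (-3.35 ± 1.11, adjusted p = 0.036), though its groups overlapped. That value rests on E18.5 lung pWT replicate 2, with 686 reads, and was 0.31 without it. Hbb-bs (adjusted p = 0.076) and Hbb-y (0.26) did not pass without that library either. Hbb-y also lost its call without E18.5 pWT replicate 1 (0.067) or P1 pWT replicate 2 (0.10) or 3 (0.12), and Hba-x without P1 pWT replicate 2 (0.10) or 3 (0.11). Hbq1b rose (3.44 ± 0.49, 0.00087).

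Liver gained Hbb-bs (0.46 ± 0.15, adjusted p = 0.047) and Hbq1b (1.03 ± 0.21, 0.0064), where 14.4% of genes rose. Hba-a1 (0.42 ± 0.28, 0.29) and Hbb-bt (0.12 ± 0.23, 0.73) did not pass. The Hbb-bs call was lost without any 1 of the 4 E18.5 batch 2 or the 3 P1 pWT livers (adjusted p = 0.0534 to 0.178) and with the reads of Hbb-bs and Hbb-bt summed (0.15), and without a filter on low counts (0.074). The E18.5 batches differed: pWT livers held 13554.5 ± 3465 CPM of Hba-a1 in batch 1 (SD, n = 2) and 8043 ± 1505 in batch 2 (n = 4). With batch 1 alone Hbb-bs changed by 0.31 (adjusted p = 0.38) and Hba-a1 by -0.10 (0.78), and with batch 2 alone both passed (Hba-a1 0.75, adjusted p = 0.00076). Markers of other cells moved with stage in liver. Of the hepatocyte markers 2 of 4 fell (60645 to 107043 CPM summed at E18.5 and 31270.5 to 40685 at P1), all 4 megakaryocyte and platelet markers rose (163 to 274 and 676 to 775 CPM), and 2 of 5 erythroid markers rose (2683 to 4005 and 6949 to 8694 CPM). Their part in the result was not tested. In heart no row passed (Hba-a1 0.10 ± 0.57, Hbb-bs 0.16 ± 0.60, Hbb-bt 0.18 ± 0.53), against 11.8% of all genes. Without E18.5 batch 2 pWT replicate 1, those heart values were 0.62, 0.78 and 0.62.

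The embryonic genes were near the limit of detection outside liver and lung. In liver, Hba-x had 5 to 77 reads per library over both stages and Hbb-bh1 2 to 46. In kidney, brain and heart no library had more than 9 reads of any embryonic row. Hbb-bh1 had 0 reads in all 5 P1 kidney libraries, where a count of 0 allows up to 3 reads, or 0.164 to 0.185 CPM. Over the 56 libraries that limit is 0.0802 to 0.28 CPM.

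One library stood apart for Hbb-y, the epsilon-y gene. E18.5 liver pIR replicate 3 had 6161 reads (260 CPM), while the other pIR livers had 21, 23 and 84 reads (1.05, 1.10 and 3.61 CPM) and the pWT livers 23, 64, 111 and 95 (1.31, 2.77, 4.67 and 4.54 CPM). The fitted change of 4.25 ± 1.45 did not pass (adjusted p = 0.81), and without that library it was -0.76. In the same library Hbb-bh1 had 38 reads, against 18 to 41 in the other pIR livers, and Hba-x 27. Hbb-y was thus the only embryonic row raised there.

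E18.5 lung showed a second uneven pattern. In pWT, Hba-x had 26 reads in replicate 1 and 686 in replicate 2 (1.06 and 26.3 CPM), and in pTKO 76 and 332 (2.03 and 14.2 CPM). Replicates of 1 group thus differed more than the groups did (-0.69 ± 1.49). Hbb-y was higher in the pTKO lungs, with 73 and 100 reads (1.95 and 4.28 CPM) against 33 and 21 (1.34 and 0.806 CPM), and the groups did not overlap. The log2 change was 1.58 ± 0.55 and missed the adjusted threshold (adjusted p = 0.80). Groups of 2 libraries often separate in this way by chance.

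**Figure D3:**
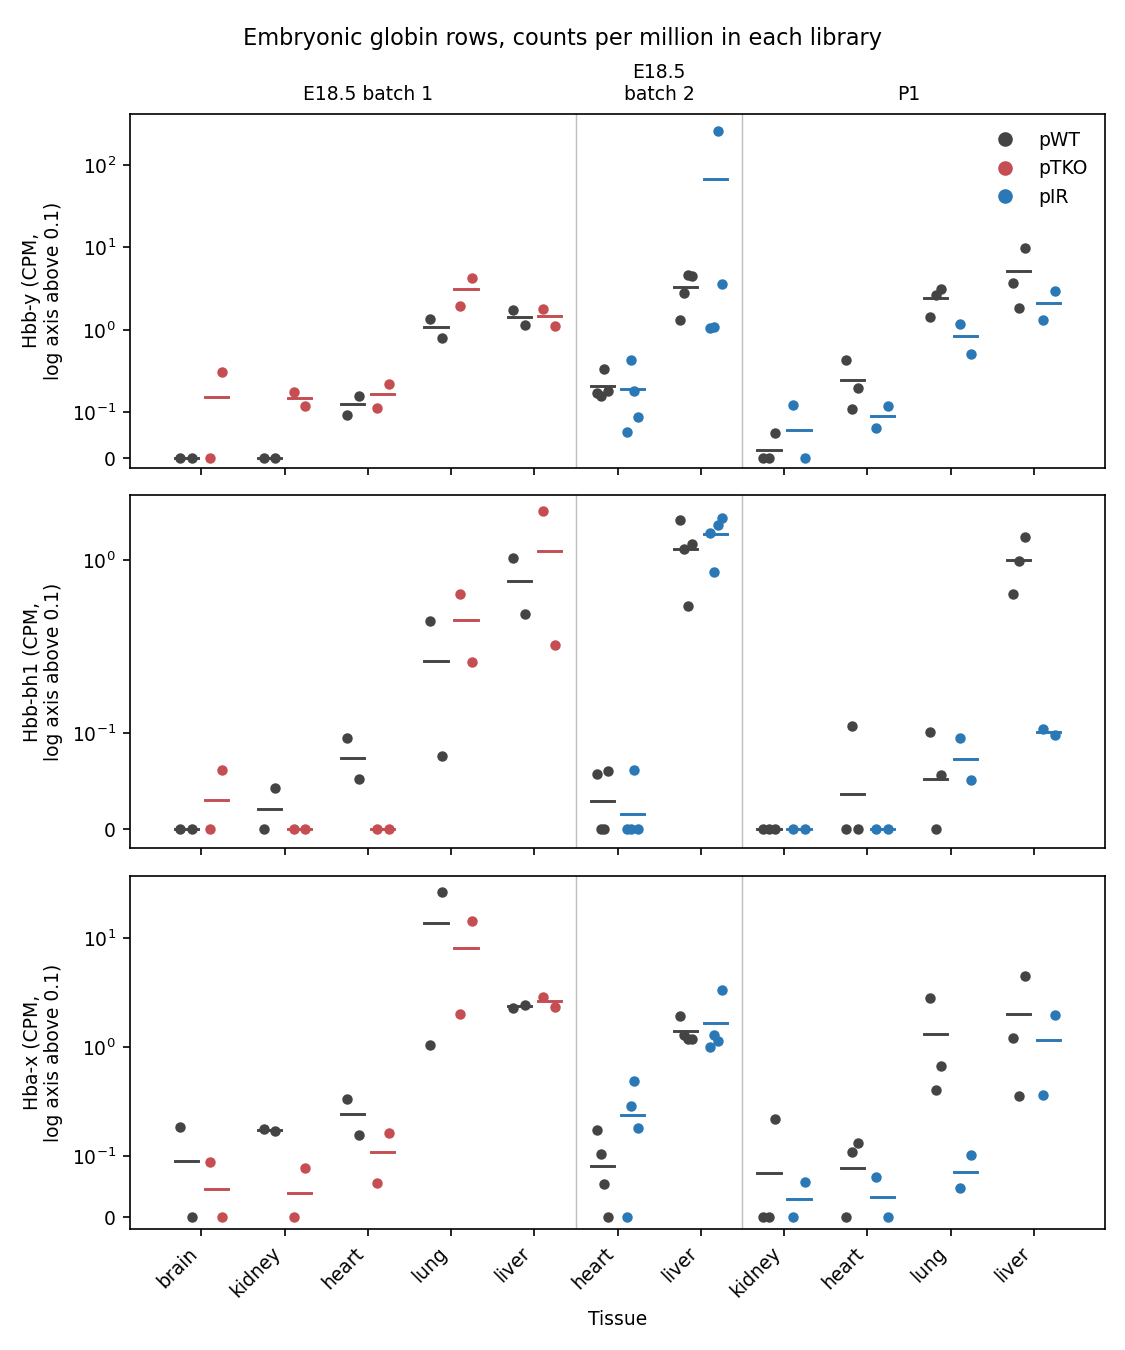
CPM of the embryonic rows Hbb-y, Hbb-bh1 and Hba-x in each library, on a log axis above 0.1 and linear below; points are libraries, coloured by genotype, and bars are group means. Liver and lung hold most of the reads, E18.5 liver pIR replicate 3 stands at 260 CPM for Hbb-y, and the P1 pIR livers hold 0.105 and 0.0981 CPM of Hbb-bh1.

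The embryonic share of beta-type reads, Hbb-y plus Hbb-bh1 over those and the adult rows, measures how far switching has gone. It was close to 0 everywhere: the median by tissue and stage lay between 0% and 0.0449%. In P1 liver it was 0.0128% and 0.0388% in pIR and 0.0123% to 0.0369% in pWT, so that 1 pIR liver lay inside the pWT range and 1 just above it. In E18.5 liver it was 1.85% in pIR replicate 3, 0.0138% to 0.0320% in the other pIR livers and 0.0202% to 0.0349% in pWT. In E18.5 lung it was 0.0625% and 0.0993% in pTKO and 0.0233% and 0.0273% in pWT.

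The embryonic share of alpha-type reads, Hba-x over Hba-x plus Hba-a1, had medians between 0% and 0.249% and reached 0.770% in E18.5 lung. Each share was compared in the 11 genotype comparisons by an exact two-sided permutation test. All 22 adjusted p-values were 1. The design limits this test: the smallest p it can give is 0.333 for 2 against 2 libraries, 0.1 for 2 against 3 and 0.0286 for 4 against 4.

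The Hbb-bt row held a changing part of the adult beta reads. It took 10.65% to 14.69% in E18.5 brain, 15.8% to 22.6% in lung, 21.4% to 22.6% in kidney, 19.6% to 30.5% in heart and 30.3% to 38.4% in liver. At P1 it took 19.9% to 23.2% in heart, 25.0% to 29.0% in lung and 21.8% to 31.7% in liver. In P1 kidney the 2 pIR libraries stood at 14.0% and 22.0%, below the 27.1% to 29.4% of the pWT libraries. These are shares of reads that 430 shared bases allow an aligner to place in either row. With both rows summed, the log2 change was -0.91 (adjusted p = 0.00033) in pTKO brain, -1.20 (0.0010) in P1 liver, -1.13 (0.015) in P1 lung, -0.83 (0.072) in P1 heart and 0.25 (0.38) in P1 kidney.

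**Figure D4:**
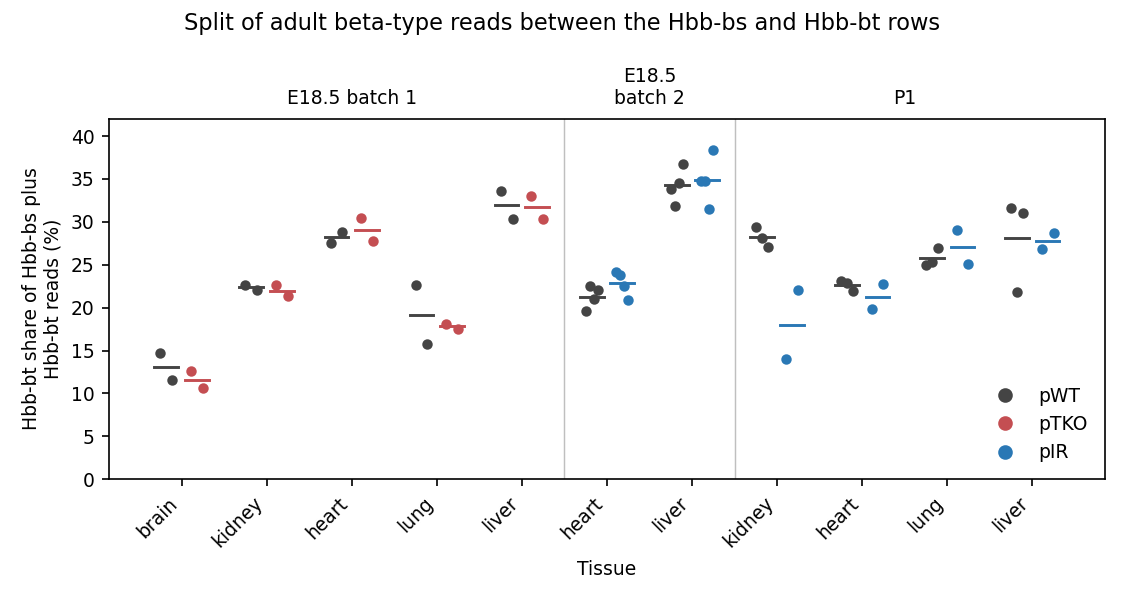
Share of the Hbb-bs plus Hbb-bt reads that fell on Hbb-bt (percent, axis from 0) in each library, by tissue, stage and batch; points are libraries, coloured by genotype, and bars are group means. E18.5 brain is lowest at 10.65% to 14.69%, E18.5 liver reaches 38.4%, and the pIR kidneys at P1 lie below the pWT kidneys.

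The fall of globin reads in P1 pIR liver went with lower levels of other red cell genes. Of 26 erythroid membrane and heme genes tested, 22 fell and 0 rose, with a median log2 change of -0.97, against -0.03 for all genes, of which 2694 fell and 3018 rose of 14588. Car1, a carbonic anhydrase of red cells, stood at 47.6 ± 2.85 CPM in pIR and 253 ± 35.2 in pWT (-2.06 ± 0.16, adjusted p = 3.8e-06). Ermap, a red cell membrane protein, fell by 1.77 on the log2 scale (SE 0.18).

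Regulators of globin genes fell in part. Of 20 tested in P1 liver 12 fell and 4 rose (median -0.65). Lmo2 (-1.28 ± 0.16) and Ldb1 (-0.83 ± 0.13), which bridge the globin enhancers and promoters, fell, as did Nfe2 (-1.17 ± 0.18), an activator that binds the beta-globin control region, and Myb (-0.76 ± 0.13), a factor of blood progenitors. Of 5 tested neighbours of the alpha cluster 3 fell: Nprl3 (-0.85 ± 0.16), whose introns hold the alpha-globin enhancers, Snrnp25 (-0.79 ± 0.20) and Mpg (-0.56 ± 0.15). Of 9 genes that clear free haemoglobin and heme, the plasma proteins Hp (0.93 ± 0.18) and Hpx (0.88 ± 0.15) and the receptor Lrp1 (1.06 ± 0.13) rose, and 2 fell, among them Blvrb, biliverdin reductase B (-1.04 ± 0.18).

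Markers of other liver cells moved in the same libraries. All 4 hepatocyte markers rose, with a summed level of 71176 to 85699 CPM in pIR and 31270.5 to 40685 in pWT. Summed erythroid markers stood at 2761 to 4611 CPM against 6949 to 8694 (4 of 5 fell), neutrophil markers at 1772 to 2049.9 against 3066 to 4622 (5 of 7 fell) and megakaryocyte and platelet markers at 292 to 301 against 676 to 775 (4 of 4 fell). Macrophage markers were higher, at 232 to 311 CPM against 198 to 207 (3 of 4 rose). Their part in the globin result was not tested.

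In P1 lung the 3 adult rows fell and in P1 heart 2 of 3 did, and few other red cell genes passed. In lung 1 of 26 erythroid genes fell, and the list's median was -0.13. Alas2, the first enzyme of erythroid heme synthesis, stood at 287 ± 55.0 CPM in pIR and 470 ± 88.5 in pWT there and did not pass (-0.75 ± 0.18, adjusted p = 0.065). Summed erythroid markers in lung, of which Alas2 is 1, ranged from 371 to 502 CPM in pIR and 525 to 821 in pWT. None of the 5 markers tested was called, and 2 were higher and 3 lower in pIR. In heart 1 of 23 fell, Tfrc (-1.25 ± 0.24), and the summed markers were 75.1 to 79.1 against 97.2 to 137 CPM. None of the 4 markers tested in heart was called, and all 4 were lower in pIR. Liver markers were also lower in the pIR hearts, at 4.90 to 6.18 against 32.6 to 44.2 CPM (2 of 4 fell), and their part in the heart result was not tested.

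In P1 kidney 2 of 22 erythroid genes rose, Cpox of heme synthesis (0.84 ± 0.14) and Slc4a1 (0.64 ± 0.14). Slc4a1 is also expressed in the collecting duct of the kidney. Over all genes in this kidney comparison, 1230 of 16234 rose. Of 9 clearance genes 4 rose there: Lrp1 (0.61), the ferritin chains Ftl1 (0.60) and Fth1 (0.42), and Hmox1 (0.56), the heme-degrading enzyme. In the E18.5 comparisons of pTKO kidney, liver and lung and of pIR heart and liver, no gene of these lists was called.

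**Figure D5:**
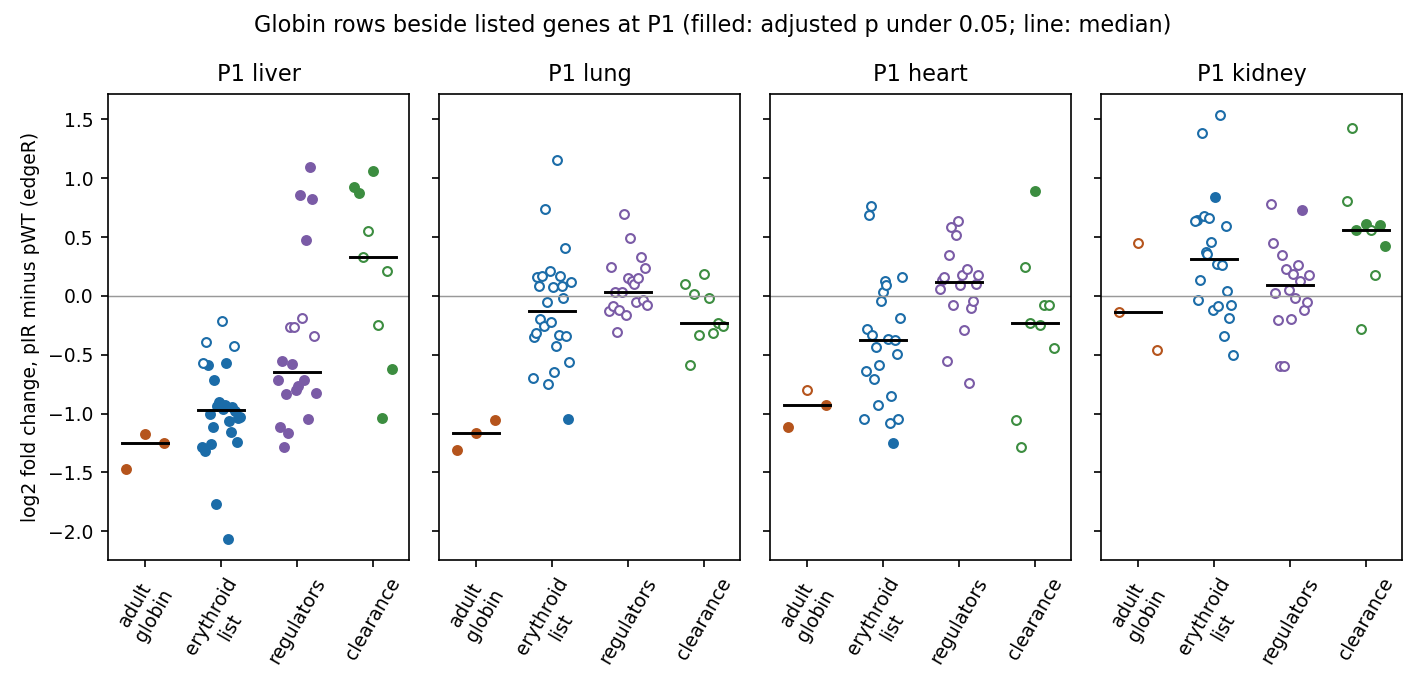
Fitted log2 fold change (y axis, pIR minus pWT) at P1 of the 3 adult globin rows beside the tested genes of the erythroid, regulator and clearance lists, in liver, lung, heart and kidney; filled symbols have an adjusted p under 0.05 and lines are medians. In liver 22 of 26 erythroid genes are filled and below 0, whereas in lung 1 of 26 and in heart 1 of 23 are.

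Between E18.5 and P1 in pWT, red cell genes rose in liver and lung. In liver 16 of 26 rose and 0 fell (median 0.77, against -0.06 for all genes, of which 2173 rose and 2054 fell), led by Car1 (2.09 ± 0.25) and Tspan33 (1.53 ± 0.19). The regulators Ldb1 (1.22), Gata1 (0.90), Mbd2 (0.80) and Eif2ak1 (0.67) were among 8 of 20 that rose, and 3 fell. In lung 18 of 26 rose and 1 fell (median 1.55, against 0.001), with Ermap at 3.01 ± 0.24 and Epb42, protein 4.2 of the red cell membrane, at 3.04 ± 0.30. Of 19 regulators tested in lung, 5 rose and 4 fell, with a median of -0.011. Among those that fell was Bcl11a, the repressor of embryonic beta-type genes (-1.42 ± 0.24). Liver markers rose in the P1 lungs as well, from 1.54 to 5.70 CPM up to 13.3 to 31.9, and lung markers in the P1 livers (4 of 4), and their part was not tested.

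Over the 56 libraries, the genes whose log2(CPM + 1) was most like that of the summed adult globins were Alas2 (Pearson r = 0.987), Ube2l6 (0.959), Isg20 (0.946), Evi2b (0.932), Mcemp1 (0.929) and Tubb1 (0.928), of 13474 genes with a mean of at least 5 CPM. These points share tissue: libraries of 1 tissue lie together. With each group's mean taken out, which leaves the spread between replicates, Alas2 (0.961), Ube2l6 (0.791), Bpgm (0.743) and Slc25a37 (0.710) were among the 6 leading genes. Alas2, Bpgm and Slc25a37 are genes of the erythroid list. For the summed embryonic globins the highest r was 0.800 (Mcemp1), and 0.572 (Pias3) with group means taken out, from sparse counts.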

How the data were processed

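Bulk RNA-seq counts per gene were taken from 7 of 10 tables, the E18.5 and P1 tissues. The authors deposited whole-number read counts for 25277 gene symbols; Trim Galore 0.6.6, HISAT2 2.1.0, featureCounts 1.6.4, DESeq2 and the mm10 build are named in the submitters' processing notes. Per the labels' protocols, RNA was extracted with TRIzol, libraries used a poly(A) kit or Smart-Seq2, and reads were 150-base pairs; the sources used here do not say which libraries used which kit. Nor do they say how multi-mapped reads were treated, which bears on the near-identical globin copies.

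Counts were tested with edgeR 4.0.16 (TMM, filterByExpr with a minimum count of 10, quasi-likelihood F test, Benjamini-Hochberg over all genes tested; R 4.3.3), 1 fit per comparison with no covariate. Called means an adjusted p under 0.05, the SE is the fitted change over the square root of F, and rose and fell refer to called genes. CPM are counts of a gene per 1000000 counts of its library. At 10714628 to 37396693 reads a library, the embryonic rows often rest on fewer than 10 reads. Shares count identical copies once, where the planned formula summed them; the summed form is an alternative. Differences of share used an exact permutation test (scipy 1.17.1). Alternatives were median-of-ratios scaling, scaling without the globin rows, no filter, DESeq2 1.42.0, the replicate number as block, all tissues in 1 fit, each E18.5 batch alone and each library left out; summing Hbb-bs and Hbb-bt, and leaving out libraries in the tests of differences, were added after seeing the data. The scripts were tested on simulated data.

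The members and lists were chosen with earlier results of these data known. Named genes are the members, other globin rows, up to 4 genes of smallest p from each list in a comparison, and the 6 genes most like the summed adult and embryonic globins. Ahsp, Igkc, Hbb-bh0 and Hbb-bh3 were not found in the tables. Gene positions come from GENCODE on mm10, and promoter starts from RefSeq. Some genes that this rule names are not reported here.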

Additional observations from a re-analysis of the deposited data

Results flagged for a closer look

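Several libraries stood far from the others of their group by Dixon's gap test, applied to groups of 4 libraries. It marked 11 of 40 combinations of group and quantity, and most of them belong to 3 libraries. For a single combination, chance marks about 1 in 20. The combinations are not independent: the adult rows were marked together in a heart library, and the embryonic shares are computed from rows also tested. In E18.5 heart pIR only replicate 3 held any read of Hbb-bh1, a case that the test always marks. Whether 11 exceeds chance therefore cannot be judged from that rate. Values below are in CPM.

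E18.5 heart pIR replicate 4 was low in all adult rows: Hba-a1 at 371 (the others 675 to 699), Hbb-bs at 568 (963 to 1030.4) and Hbb-bt at 149.5 (299.9 to 307). E18.5 liver pIR replicate 3 was high in Hbb-y at 260 (1.05 to 3.61), with an embryonic share of beta-type reads of 1.85% (0.0138% to 0.0320%). E18.5 liver pIR replicate 4 was high in Hba-x at 3.31 (0.999 to 1.29), with an embryonic share of alpha-type reads of 0.0424% (0.0158% to 0.0171%). The other marked values were Hba-x at 1.93 in E18.5 liver pWT replicate 1 (1.18 to 1.30), Hbb-bt at 7901 in E18.5 liver pWT replicate 4 (5053 to 5368), and, from at most 6 reads, Hbb-y at 0.332 in E18.5 heart pWT replicate 3 (0.159 to 0.183) and Hbb-bh1 at 0.0613 in E18.5 heart pIR replicate 3 (the others at 0).

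Effects that differed between tissues or stages by a test of the difference were these. The pIR change differed between the P1 tissues for Hba-a1 (edgeR adjusted p = 0.0325) and Hbb-bs (0.00628). Liver minus kidney was -1.34 for Hba-a1 and -1.63 for Hbb-bs on the log2 scale. For Hbb-bs, lung minus kidney was -1.63 and heart minus kidney -1.27. Of these results for P1 tissues, only liver minus kidney for Hbb-bs passed without kidney pIR replicate 1 (-1.23, adjusted p = 0.0494). In liver, the pIR change at P1 minus that at E18.5 was -1.35 for Hba-a1, -1.01 for Hbb-bs, -1.12 for Hbb-bt, -3.25 for Hbb-bh1 and -1.12 for Hbq1b.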

How the results depend on the processing

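Of 2622 alternative values for 233 results, 2206 kept their direction and side of the threshold (or moved by less than the spread), 252 lost the threshold, 11 gained it, 114 moved and 39 changed sign; 36 of these 39 came from leaving out 1 library. The cause of these changes was not tested. The number of distinct haemoglobin rows called in P1 liver was 4 in every alternative, and 3 to 4 with 1 library left out. In pTKO brain it was 3 and became 0 with all tissues in 1 fit. In pTKO heart it was 1, became 2 with all tissues in 1 fit and 0 without any 1 library. In P1 heart it was 2 and ranged from 0 to 2 with 1 library left out, in P1 lung it was 3 and ranged from 0 to 3 (0 without pIR replicate 1 or 2), and in P1 kidney it was 0, became 1 with DESeq2 (Hbb-bt) and ranged from 0 to 1 (1 without pWT replicate 2 or pIR replicate 2). In E18.5 lung it was 0 and ranged from 0 to 1 (1 without pTKO replicate 1). For P1 against E18.5, the heart count was 0 and became 1 with E18.5 batch 1 alone. The liver count was 1, became 0 without a filter, 0 with batch 1 alone and 2 with batch 2 alone, and ranged from 0 to 1 with 1 library left out. The kidney count was 3 (0 to 3 with 1 left out, 0 without P1 pWT replicate 1 or 2), and the lung count was 4 (1 to 4, 1 without E18.5 pWT replicate 2).

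Values that changed sign had not passed the test, except Hba-x in lung between the stages, which ranged from -4.677 to 0.308 with 1 library left out. With E18.5 batch 2 alone the stage change of Hbb-bs in heart was -0.074, with batch 1 alone that of Hba-a1 in liver was -0.104, and with median-of-ratios scaling the pTKO minus pIR difference of Hbb-bs in E18.5 liver was -0.0132. A value that moved without a change of sign was the pTKO minus pWT difference of the beta-type embryonic share in E18.5 kidney. It was 0.0237 points with copies counted once and 0.01331 points with the copies summed. Log2 changes with 1 library left out ranged, in pTKO kidney, from -0.41 to 0.065 (Hba-a1), -0.608 to 0.048 (Hbb-bs) and -0.692 to 0.07 (Hbb-bt), positive without pTKO replicate 2. In pTKO liver they ranged from -0.36 to 0.105 (Hba-a1) and -0.512 to 0.052 (Hbb-bt), positive without pWT replicate 1. In pTKO lung they ranged from -0.492 to 0.252 (Hba-a1), -0.455 to 0.252 (Hbb-bs), -0.885 to 0.464 (Hbb-bt) and -2.683 to 2.972 (Hba-x). In E18.5 pIR heart they ranged from -1.06 to 0.152 (Hba-a1), -0.968 to 0.202 (Hbb-bs) and -0.757 to 0.293 (Hbb-bt), positive without pWT replicate 1. Hbb-y in E18.5 pIR liver ranged from -0.756 to 4.664 and Hba-a1 in P1 kidney from -0.36 to 0.053. Between the stages, heart ranged from -0.088 to 0.618 (Hba-a1), -0.022 to 0.781 (Hbb-bs) and -0.008 to 0.624 (Hbb-bt), and Hbb-bt in liver from -0.041 to 0.358. Differences of the P1 pIR change, none of which had passed, ranged for liver minus lung from -0.5277 to 0.1526 (Hba-a1), -0.2588 to 0.2229 (Hbb-bs) and -0.4424 to 0.1175 (Hbb-bt), and for lung minus heart from -0.4191 to 0.0619 (Hba-a1) and -0.4206 to 0.1395 (Hbb-bt).

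Replicate numbers are shared between groups. Whether same-numbered libraries of 2 genotypes deviate together within a tissue cannot be settled with so few pairs. Where both groups hold 2 libraries, both pairs give the same correlation by construction. With 2 pairs a comparison, the correlations of same-numbered libraries' deviations from the group means ran from -0.242 (E18.5 liver) to 0.218 (P1 lung). With 4 pairs they ran from -0.332 to 0.106. The same number was not tested across tissues. Summed globin was higher in replicate 1 than in replicate 2 in every tissue of pIR at P1 (liver 16970 and 11369 CPM, kidney 643 and 439). It was so in every tissue of pTKO as well (brain 432 and 368 CPM), though not in batch 1 pWT heart (1895 and 1965). With the replicate number as a block, the rows called became 0 in pTKO heart, 0 in P1 heart, 1 in P1 kidney (Hbb-bs, adjusted p = 0.0414) and 4 in P1 lung, and stayed at 3 in pTKO brain and 4 in P1 liver. The block moved all genes called from 272 to 168 in pTKO brain, 4042 to 2535 in pTKO heart, 349 to 94 in P1 heart, 1727 to 2634 in P1 kidney and 421 to 1233 in P1 lung.

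Counts of all genes called moved as well. Over the other alternatives they ranged from 0 to 951 in pTKO brain, 0 to 335, 60 and 13 in pTKO kidney, liver and lung, 0 to 20 and 0 to 11 in E18.5 pIR heart and liver, 94 to 2629 in P1 heart, 1757 to 2778 in P1 kidney and 148 to 1233 in P1 lung. Between the stages they ranged from 1472 to 8863 in heart, 3045 to 5156 in kidney and 3005 to 10233 in liver. With 1 library left out they ranged from 155 to 687 in pTKO brain, 0 (without pTKO replicate 1) to 5266 in pTKO heart, and 0 to 5327, 7191 and 7876 in pTKO kidney, liver and lung. The highest came without pWT replicate 1 in kidney and liver and without pTKO replicate 2 in lung. They ranged from 0 to 3 and 0 to 2 in E18.5 pIR heart and liver, 5 (without pWT replicate 2) to 1162 in P1 heart, 150 (without pWT replicate 1) to 2219 in P1 kidney, 4325 to 5139 in P1 liver and 18 (without pIR replicate 1) to 346 in P1 lung. Between the stages they ranged from 487 to 2774 in heart, 0 (without P1 pWT replicate 1) to 6850 in kidney, 2327 to 7814 in liver and 4975 to 7721 in lung. Precision is limited by 2 to 4 libraries a group, and for the embryonic rows by their few reads. DESeq2 gave no adjusted p for Hbb-bt in pTKO brain or Hbb-y in E18.5 pIR liver.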
